A study of Homo sapiens with 4 samples.

Results

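Expression of 43 genes of fatty acid oxidation, PPAR signalling and lipid droplets was examined in MDA-MB231 and Hs578T cells with and without introduced FBP1, the gluconeogenic enzyme fructose-1,6-bisphosphatase. The genes were a listed set, of which 41 had a probe set annotated to them alone, among 18417 genes measured in this way. Of these, 38 lay above the intensity filter (mean log2 value of at least 6.16) and were tested among 15946 genes. CD36, FABP4 and ACADL lay below the filter, and CPT1B and FABP5 shared their probe sets with other genes and were not analysed. The study held 4 arrays, 1 each for MDA-MB231 control cells, MDA-MB231 cells expressing FBP1, Hs578T control cells and Hs578T cells expressing FBP1. Both lines are established and derive from human breast cancers that the labels call basal-like, and per the series' design text stable clones expressing FBP1 were selected. Total RNA was taken from cells in log-phase growth in serum-containing medium. What the control cells carried, the promoter that drove FBP1 and the number of clones are not given in the sources used here. With 1 array per group, no value within a line had a replicate, and an array of bulk RNA cannot tell fewer expressing cells from less RNA per cell.

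Fatty acids enter mitochondria as carnitine esters, made by carnitine palmitoyltransferases, and are shortened there by rounds of dehydrogenation, hydration, oxidation and thiolysis. Very long and branched chains are first shortened in peroxisomes. PPAR nuclear receptors bind fatty acids and switch on many of these enzymes. Fatty acids not burned are stored as triglyceride in lipid droplets, which perilipins coat and lipases mobilise.

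The labels were checked first. FBP1 had log2 values of 9.83 (control) and 13.07 (FBP1 clones) in MDA-MB231, and of 6.35 and 13.35 in Hs578T, so it was the highest-ranked increase of all genes in each line. Median values of the 4 arrays lay between 7.83 and 7.86. The mesenchymal markers VIM (13.71 to 13.72 on all arrays) and CD44 (13.68 to 13.88) were high, whereas the basal keratin KRT5 lay between 6.80 and 6.93. Another basal keratin, KRT14, stood higher, at 8.64 (control) and 8.45 (FBP1) in MDA-MB231, and at 8.85 and 9.62 in Hs578T. Of the lipid-handling cell types, 4 of 9 macrophage markers lay below the filter on average, PTPRC (4.52 to 4.96), CD163, MRC1 and AIF1. The other 5 lay above it, among them CD68 (10.99 to 11.60) and TYROBP (8.70 to 8.99), and CD14 was called 0.72 higher in MDA-MB231. The 9 macrophage markers averaged 7.89 and 7.95 on the MDA-MB231 arrays and 7.09 and 7.23 on the Hs578T arrays, with LAPTM5 6.47 higher in MDA-MB231. The 8 adipocyte markers averaged 7.75 and 7.79, and 7.46 and 7.63. Of these 8, 1 (LPL) differed between the lines by limma at an adjusted p under 0.05, against 40.8% of all genes. The 8 endothelial markers averaged between 6.68 and 6.94. Of 10 luminal breast markers tested, 5 were called higher in MDA-MB231 and 1 in Hs578T, against 21.8% and 19% of all genes. The part of these markers in the line differences that follow was not tested.

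With FBP1, few of the 38 tested genes differed much from control. In MDA-MB231, 1 gene (FAR2, whose control value lay below the filter level) was at least 1.5-fold higher and 0 were lower by that much, against 0.301% and 0.326% of all genes tested. In Hs578T, 0 were at least 1.5-fold higher and 1 (PDK4) was lower, against 1.39% and 1.69% of all genes. The median log2 change was 0.007 in MDA-MB231 and 0.0336 in Hs578T, beside −0.00528 and 0.0213 over all genes. In MDA-MB231, 19 genes lay above control and 19 below, and in Hs578T 20 above and 18 below. Changes had the same sign in both lines for 15 genes, 8 higher and 7 lower, and opposite signs for 23 (60.5%, against 48.7% of all genes). Over the 38 genes the changes of the lines correlated at r = 0.272, and at r = −0.079 without FAR2 and PDK4, which are descriptions across genes that share arrays. Changes were wider in Hs578T, where 73.7% of the 38 genes lay within 1.2-fold of control (80.8% of all genes), than in MDA-MB231, where 94.7% did (91.5% of all genes).

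The fit of both lines together in limma, with the line as a term, called 0 of the 38 genes for FBP1 at an adjusted p under 0.05 (0% of all genes tested), and the lowest adjusted p was 0.943. At an unadjusted p under 0.05 it gave 3 of the 38, FAR2, MGLL and ECI2, against 5.14% of all genes. The introduced FBP1 itself had an adjusted p of 0.943 in this fit. Its error rests on 1 residual degree of freedom, the disagreement between the lines, so a missed threshold does not show that a gene did not change.

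**Figure D1:**
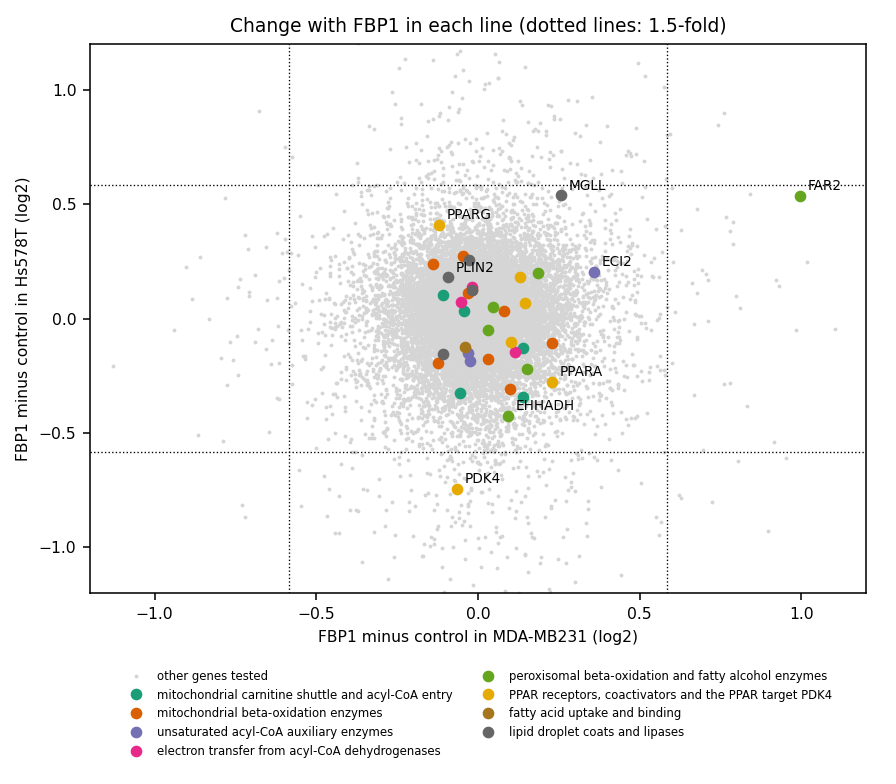
Log2 change with FBP1 in MDA-MB231 (horizontal) and Hs578T (vertical), 1 array per group, for the 38 tested genes coloured by role and for all other genes tested within the plotted range (grey); dotted lines mark 1.5-fold. FAR2 lies beyond the line at the right (0.99, 0.53) and PDK4 beyond the lower line (−0.07, −0.74), while the other 36 lie inside the central square.

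The larger contrast was between the lines. Of the 38 genes, 23 differed between MDA-MB231 and Hs578T by limma at an adjusted p under 0.05, 14 higher in MDA-MB231 (21.8% of all genes tested) and 9 higher in Hs578T (19% of all genes tested). Together these were 60.5% of the 38 genes and 40.8% of all genes. Among genes above the median intensity the shares were 57.1% of 35 and 49.0%. The median size of the line difference was 0.39 on the log2 scale for the 38 genes and 0.24 for all genes, and 6 of the 38 (15.8%) differed by at least 2-fold, against 10.8% of all genes. The direction was mixed, with 19 genes higher in each line, and the median difference was 0.00614. Each line is represented by its control and its FBP1 array. The error of this fit rests on how far the change with FBP1 differed between the lines. These p-values thus do not measure the spread between repeated cultures.

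**Figure D2:**
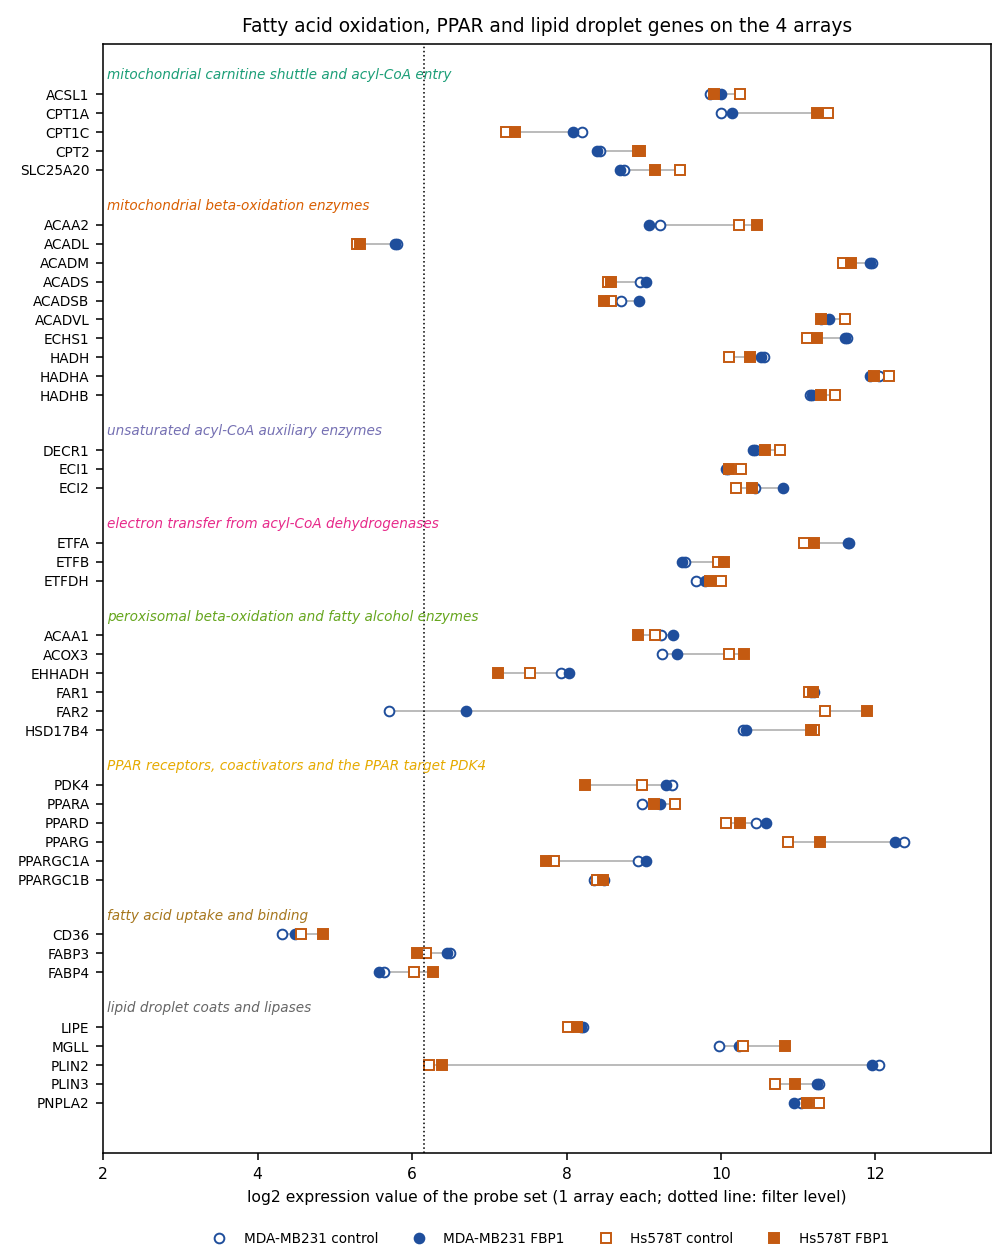
Log2 expression value of each of the 41 genes with a probe set of its own on the 4 arrays, grouped by role; circles are MDA-MB231, squares Hs578T, open symbols control and filled symbols FBP1, and the dotted line is the filter level. PLIN2 and FAR2 span the widest ranges, in opposite directions, and levels of different probe sets are not comparable with each other.

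Among lipid droplet genes, PLIN2 was far higher in MDA-MB231. PLIN2, which encodes the perilipin that coats droplets in most cell types and is a PPAR target, had log2 values of 12.05 (control) and 11.96 (FBP1) in MDA-MB231, but 6.22 (control) and 6.39 (FBP1) in Hs578T. The lines did not overlap, and the Hs578T values lay at the filter level, so they were not shown to be above background and the size of the difference is uncertain. The difference was 5.70 ± 0.11 (limma standard error, 2 arrays a line), with an adjusted p of 3.68e-06. It was 5.84 between the control arrays and 5.56 between the FBP1 arrays. PLIN3, a perilipin found in the cytosol and on nascent droplets, stood at 11.27 and 11.24 in MDA-MB231 and 10.70 and 10.96 in Hs578T, a difference of 0.42 ± 0.11 (limma adjusted p = 0.0219).

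Of the lipases that act on the stored triglyceride, 1 of 3 was called between the lines, against 40.8% of all genes. PNPLA2, the adipose triglyceride lipase that takes the first fatty acid, lay between 10.94 and 11.27 on the 4 arrays, and LIPE, hormone-sensitive lipase, between 8.02 and 8.21. Neither differed between the lines by limma (adjusted p = 0.12 and 0.436), with differences of −0.21 ± 0.09 and 0.12 ± 0.11. MGLL, which releases the last fatty acid from monoglyceride, stood at 9.97 (control) and 10.23 (FBP1) in MDA-MB231, and at 10.29 and 10.83 in Hs578T. It was thus higher with FBP1 in each line, by 0.26 and 0.54 (1.45-fold in Hs578T), while the MDA-MB231 FBP1 array stayed below both Hs578T arrays. The line difference of MGLL was −0.46 ± 0.11 (limma adjusted p = 0.0198). Over both lines its mean change was 0.40 ± 0.11 with a limma adjusted p of 0.943.

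FAR2 showed the opposite line pattern to PLIN2. FAR2 and FAR1 reduce fatty acyl-CoA to fatty alcohol at peroxisomes, for ether lipids and waxes. FAR2 stood at 5.70 (control) and 6.70 (FBP1) in MDA-MB231, and at 11.35 and 11.89 in Hs578T. The MDA-MB231 control value was below the filter level. FAR2 passed the filter through its Hs578T arrays, and its MDA-MB231 values were not shown to be above background, so neither the size of the line difference nor that of the change in MDA-MB231 is certain. The lines did not overlap, with a measured difference of −5.42 ± 0.14 (limma adjusted p = 5.04e-06). FAR1 lay between 11.14 and 11.21 on all 4 arrays, and its line difference was 0.03 ± 0.09 (limma adjusted p = 0.834). Its changes with FBP1 were 0.05 in each line.

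The change of FAR2 with FBP1 was 0.99 in MDA-MB231, from the control value below the filter, and 0.53 in Hs578T (1.45-fold), where both values were high. Among genes with a value below 6.5 in the MDA-MB231 control, 42 were at least 16-fold more abundant in the Hs578T control, FAR2 included. Of these, 33 (78.6%) were higher with FBP1, against 61.1% of the 815 other genes this dim. By at least 1.5-fold, 10 (23.8%) were higher, against 7 of 815 (0.859%). The median change was 0.29, against 0.04 for the other genes this dim. In linear units the increase of FAR2 came to 1.98% of the Hs578T control level, and over the 42 genes this share ranged from −0.869% to 3.79% with a median of 0.487%. These genes were picked by the control value from which their change is taken. Like FAR2, they passed the filter through Hs578T, and their MDA-MB231 control values lie near or below the filter level. The other genes below 6.5 passed the same filter without so large a gap between the lines, so their control values need not be as low. The counts thus describe low values only and do not compare like with like. The part of this pattern in the FAR2 value was not tested. A setting without these 42 genes was added after these values had been seen. It gave a count of 0 of the 38 genes at least 1.5-fold higher in MDA-MB231. That outcome was fixed in advance, because FAR2 was the only gene so counted and is among those left out. For PLIN2 in Hs578T, the mirror case, the change was 0.18, and 23 genes dim there and at least 16-fold more abundant in MDA-MB231 had a median change of 0.28. The other genes this dim in Hs578T had a median change of 0.10, and the same limit holds for that comparison.

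**Figure D3:**
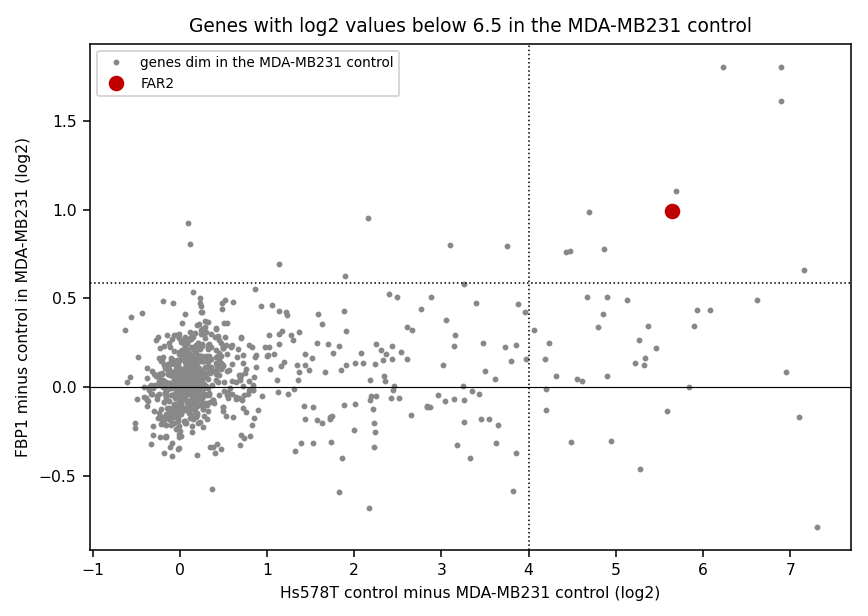
Genes with a log2 value below 6.5 in the MDA-MB231 control, by the difference of the 2 control arrays (horizontal, log2) and the change with FBP1 in MDA-MB231 (vertical, log2); the dotted lines mark 16-fold and 1.5-fold. FAR2 (red) is 1 of 10 genes in the upper right field, out of 42 to the right of the vertical line.

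The windows upstream of PLIN2 and FAR2 are shown because these genes had the widest measured line differences of the 38, in opposite directions. Those of PLIN3 and FAR1 are shown because these relatives differed less between the lines. That of PDK4 is shown as the only gene of the 38 at least 1.5-fold lower with FBP1 in Hs578T. Each window holds the 250 bases before the gene start in RefSeq, build GRCh38.p14, written 5′ to 3′ on the gene's strand. They lie at chr9:19127493-19127742 (minus strand, PLIN2), chr19:4867668-4867917 (minus, PLIN3), chr12:29149028-29149277 (plus, FAR2), chr11:13668418-13668667 (plus, FAR1) and chr7:95596517-95596766 (minus, PDK4). Capitals mark matches on either strand to the letters AGGTCA (the half-site that nuclear receptors such as PPARs bind in pairs), GGGCGG (GC box), CCAAT and TATAAA.

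PLIN2: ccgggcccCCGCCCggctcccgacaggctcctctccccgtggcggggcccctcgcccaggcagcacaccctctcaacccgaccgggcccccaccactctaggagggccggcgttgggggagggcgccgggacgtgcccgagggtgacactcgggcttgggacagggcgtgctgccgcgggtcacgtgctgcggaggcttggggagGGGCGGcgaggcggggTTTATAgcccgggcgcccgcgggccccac
PLIN3: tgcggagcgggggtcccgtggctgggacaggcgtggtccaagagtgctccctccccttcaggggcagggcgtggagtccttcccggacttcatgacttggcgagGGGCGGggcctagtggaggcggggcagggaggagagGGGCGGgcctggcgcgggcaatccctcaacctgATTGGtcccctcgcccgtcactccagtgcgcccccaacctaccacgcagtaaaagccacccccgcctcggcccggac
FAR2: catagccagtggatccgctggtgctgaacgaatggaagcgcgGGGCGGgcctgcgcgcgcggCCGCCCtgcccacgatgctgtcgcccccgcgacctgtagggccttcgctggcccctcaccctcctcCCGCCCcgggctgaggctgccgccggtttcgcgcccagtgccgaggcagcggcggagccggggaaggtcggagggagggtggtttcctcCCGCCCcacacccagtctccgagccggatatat
FAR1: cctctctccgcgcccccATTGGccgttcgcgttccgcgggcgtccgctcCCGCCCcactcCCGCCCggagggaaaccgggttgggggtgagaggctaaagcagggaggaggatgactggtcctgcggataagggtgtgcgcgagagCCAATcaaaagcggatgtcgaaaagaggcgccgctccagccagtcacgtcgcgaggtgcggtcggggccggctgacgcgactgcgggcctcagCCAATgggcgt
PDK4: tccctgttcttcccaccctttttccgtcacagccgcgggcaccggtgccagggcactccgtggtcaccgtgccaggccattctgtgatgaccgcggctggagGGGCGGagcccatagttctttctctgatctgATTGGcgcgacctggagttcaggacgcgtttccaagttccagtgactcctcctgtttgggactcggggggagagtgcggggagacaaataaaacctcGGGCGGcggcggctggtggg

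PLIN2 held 2 GC boxes and, 29 bases before its start, TTTATA, which reads TATAAA only on the opposite strand. FAR2 held 4 GC boxes and none of the other motifs. PLIN3 and FAR1 each held 2 GC boxes, with 1 CCAAT in PLIN3 and 3 in FAR1, and PDK4 held 2 GC boxes and 1 CCAAT. None of the 5 windows held AGGTCA. The window was found for 35 of the 43 genes, of which 2 (5.71%), PPARG and PNPLA2, held AGGTCA, against 12.1% of 27305 such windows. GC boxes were in 71.4% of the 35 and 42.3% of all, CCAAT in 28.6% and 33.0%, and TATAAA in 8.57% and 11.1%. The median GC content was 66.0% for the 35 and 58.0% for all. PLIN2 and FAR2 had 28 and 29 CpG dinucleotides, and PLIN3 and FAR1 had 19 and 30. These are matches of letters and not binding sites.

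Among the PPAR receptors, PPARG, which drives fat storage, had log2 values of 12.37 and 12.25 in MDA-MB231 and 10.87 and 11.28 in Hs578T. Both MDA-MB231 arrays lay above both Hs578T arrays, with a difference of 1.23 ± 0.13 (limma adjusted p = 0.000954), 2.35-fold. The FBP1 array was 0.12 below control in MDA-MB231 but 0.41 above it in Hs578T. PPARD, the widely expressed receptor, was 0.36 ± 0.10 higher in MDA-MB231 (limma adjusted p = 0.0281), at 10.46 and 10.58 against 10.07 and 10.25. PPARA, the main inducer of fatty acid oxidation in liver, overlapped between the lines, at 8.98 and 9.21 in MDA-MB231 and 9.41 and 9.13 in Hs578T. Its changes with FBP1 were 0.23 and −0.28.

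The coactivators split. PPARGC1A (PGC-1 alpha), an inducible activator of mitochondrial genes, was 1.19 ± 0.11 higher in MDA-MB231 (limma adjusted p = 0.000469), at 8.93 and 9.03 against 7.84 and 7.74 in Hs578T. PPARGC1B, its relative, lay between 8.35 and 8.49 on all 4 arrays, a difference of −0.02 ± 0.10.

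PDK4, the kinase that blocks pyruvate dehydrogenase when fatty acids are burned and a target of PPARs, stood at 9.36 (control) and 9.29 (FBP1) in MDA-MB231. The Hs578T arrays gave 8.98 (control) and 8.24 (FBP1), so that the Hs578T FBP1 array was the lowest of the 4. The decrease in Hs578T was 1.68-fold (−0.74) and ranked 171 among all decreases there, against −0.07 in MDA-MB231. The mean change over both lines was −0.41 ± 0.17, with a limma adjusted p of 0.943. PDK4 was also higher in MDA-MB231 than in Hs578T by 0.71 ± 0.17 (limma adjusted p = 0.0189), a difference of 0.37 between control arrays and 1.05 between FBP1 arrays.

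Of the fatty acid uptake and binding genes, those best known from fat and muscle were dim. CD36, a fatty acid transporter of the cell surface, lay between 4.32 and 4.85, and FABP4, the adipocyte binding protein and a PPARG target, between 5.57 and 6.27. FABP3, the heart form, lay between 6.06 and 6.49, around the filter level, with a line difference of 0.36 ± 0.11 (limma adjusted p = 0.0422) that was not called after median centring.

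At the entry of fatty acids into mitochondria, 3 of 5 tested genes were called higher in Hs578T (19% of all genes) and 1 in MDA-MB231 (21.8% of all genes). CPT1A, the rate-limiting carnitine palmitoyltransferase of the outer membrane in most tissues, had values of 10.00 and 10.14 in MDA-MB231 and 11.38 and 11.25 in Hs578T. The difference of −1.25 ± 0.11 (limma adjusted p = 0.000372) is 2.37-fold, with no overlap. CPT1C, the brain form with little known oxidation activity, went the other way, at 8.20 and 8.09 against 7.22 and 7.33, a difference of 0.87 ± 0.11 (limma adjusted p = 0.00164). CPT2, which re-forms acyl-CoA inside, and the carnitine carrier SLC25A20 were higher in Hs578T by 0.51 and 0.60 (limma adjusted p = 0.00933 and 0.0084). SLC25A20 stood at 8.74 and 8.69 in MDA-MB231, and at 9.47 and 9.15 in Hs578T, 0.33 lower with FBP1 there. ACSL1, which activates fatty acids to acyl-CoA, overlapped between the lines, at 9.86 and 10.00 against 10.25 and 9.91, with changes of 0.14 and −0.34 with FBP1.

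Of 9 tested enzymes of the mitochondrial cycle, 3 were called higher in MDA-MB231 and 1 in Hs578T, against 21.8% and 19% of all genes. Their median line difference in size was 0.29, beside 0.24 for all genes. The acyl-CoA dehydrogenases, which take the first step, had line differences of 0.32 ± 0.08 for medium-chain ACADM (11.96 and 11.93 against 11.58 and 11.69), 0.43 ± 0.10 for short-chain ACADS and −0.11 ± 0.12 for very long-chain ACADVL. Of these, ACADM and ACADS passed in limma (adjusted p = 0.0278 and 0.0172). ACADSB, for branched short chains, did not (0.29 ± 0.12, adjusted p = 0.107). ACADL lay below the filter at 5.29 to 5.80. The hydratase gene ECHS1 was 0.45 ± 0.09 higher in MDA-MB231 (limma adjusted p = 0.00978).

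The trifunctional protein genes HADHA and HADHB lay between 11.93 and 12.18 and between 11.15 and 11.48, and HADH, the short-chain hydroxyacyl-CoA dehydrogenase, between 10.11 and 10.56. None of the 3 was called. The thiolase gene ACAA2, which closes the cycle, stood apart. It was at 9.21 and 9.07 in MDA-MB231 and 10.23 and 10.47 in Hs578T, a difference of −1.21 ± 0.13 (limma adjusted p = 0.000783), 2.31-fold. With FBP1 the 9 tested enzymes of this group had changes of −0.14 to 0.23 in MDA-MB231 and −0.31 to 0.27 in Hs578T, of opposite sign for 7 of the 9, where 48.7% of all genes had opposite signs.

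Double bonds in fatty acids need auxiliary enzymes. The isomerase gene ECI2 stood at 10.44 (control) and 10.80 (FBP1) in MDA-MB231, and at 10.20 and 10.40 in Hs578T, so it was higher with FBP1 in each line, by 0.36 and 0.20. Its mean change was 0.28 ± 0.10 with a limma adjusted p of 0.943. The related ECI1 and the reductase gene DECR1 were lower by 0.03 and 0.02 in MDA-MB231 and by 0.15 and 0.19 in Hs578T. ECI2 was also called between the lines (0.32 ± 0.10, limma adjusted p = 0.0465), close to the threshold.

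Electrons from the dehydrogenases pass to the flavoprotein of ETFA and ETFB and then to ETFDH in the inner membrane. The subunits of the flavoprotein differed in opposite directions between the lines. ETFA was higher in MDA-MB231, at 11.66 and 11.64 against 11.07 and 11.21 (0.50 ± 0.09, limma adjusted p = 0.00644). ETFB was higher in Hs578T, at 9.54 and 9.49 against 9.96 and 10.04 (−0.49 ± 0.10, limma adjusted p = 0.0118). ETFDH lay between 9.68 and 10.00 and was not called.

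In peroxisomes, ACOX3, an oxidase of branched chains, was higher in Hs578T, at 9.24 and 9.43 in MDA-MB231 against 10.10 and 10.30 (−0.87 ± 0.10, limma adjusted p = 0.00114). HSD17B4, the D-bifunctional protein, was higher there as well, at 10.29 and 10.32 against 11.21 and 11.16 (−0.88 ± 0.09, limma adjusted p = 0.000856). EHHADH, the L-bifunctional protein and a PPARA target in liver, ran the other way, at 7.93 and 8.03 against 7.53 and 7.11 (0.66 ± 0.15, limma adjusted p = 0.0141). With FBP1, EHHADH was 0.43 lower in Hs578T and 0.09 higher in MDA-MB231. The thiolase gene ACAA1 lay between 8.92 and 9.38 and was not called. All 6 tested genes of this group, the fatty alcohol enzymes included, were above control in MDA-MB231, by 0.03 to 0.99, and 3 of 6 were so in Hs578T. Over all genes 48.2% were above control in MDA-MB231, and the changes of HSD17B4 (0.03) and FAR1 (0.05) were near 0.

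**Figure D4:**
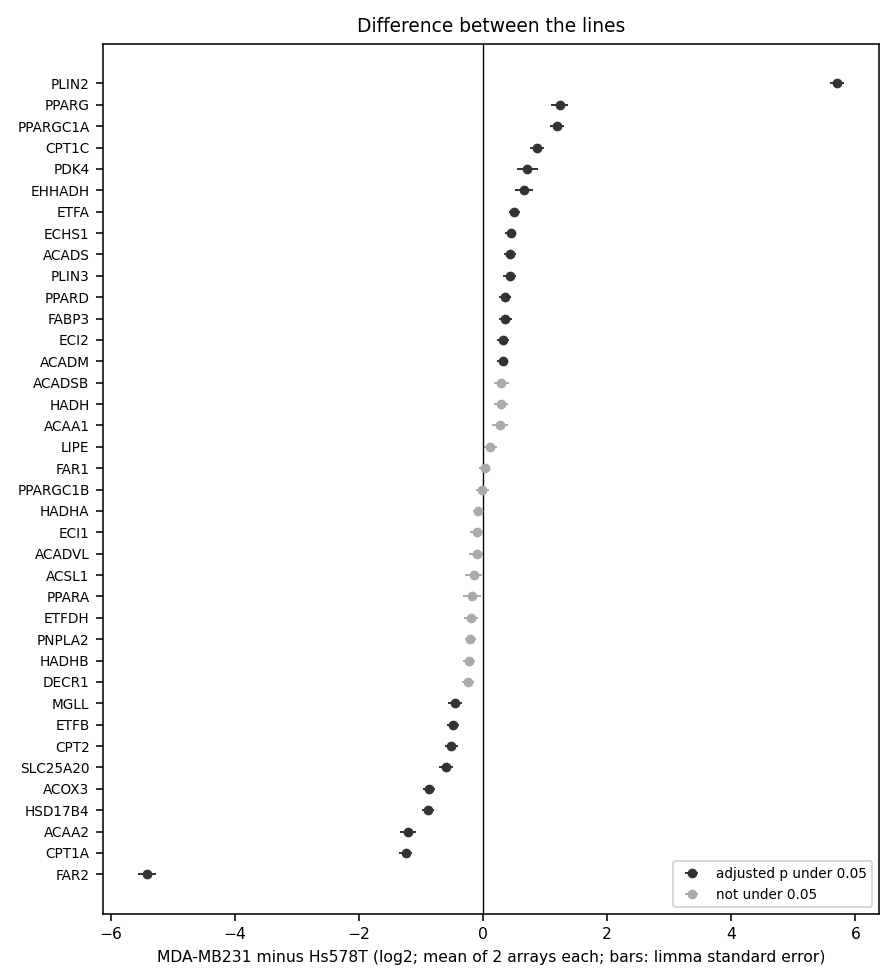
Difference between the lines (MDA-MB231 minus Hs578T, log2) for the 38 tested genes, as the mean of the control and the FBP1 array of each line; bars are limma standard errors and dark points have an adjusted p under 0.05. PLIN2 (5.70) and FAR2 (−5.42) stand far from the other 36, which lie between −1.25 and 1.23.

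Other genes of these pathways were taken from 8 lists. Over all genes tested, 21.8% were called higher in MDA-MB231 and 19% in Hs578T, beside which the counts of each list stand. Of 27 other lipid droplet and triglyceride genes tested, 9 were called higher in MDA-MB231 and 4 in Hs578T. LPL, the lipoprotein lipase, stood at 8.74 and 9.32 in MDA-MB231 and 6.70 and 7.31 in Hs578T, a line difference of 2.02 ± 0.10 (limma adjusted p = 4.41e-05). It was higher with FBP1 by 0.58 and 0.61 (limma adjusted p = 0.943 over both lines). HSD17B11, a droplet-bound dehydrogenase, was 1.80 higher in MDA-MB231, and G0S2, the inhibitor of PNPLA2, 1.40 higher. The phosphatidate phosphatase gene LPIN1 was lower with FBP1 in MDA-MB231 by 0.74 and higher in Hs578T by 0.17.

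Of 15 other acyl-CoA synthetase and transporter genes, 4 were called higher in MDA-MB231 and 3 in Hs578T. Over all genes these shares were 21.8% and 19%, also for the line counts below. ACSL5, a synthetase of mitochondria and endoplasmic reticulum, was at 12.13 and 12.19 in MDA-MB231 and 7.66 and 7.74 in Hs578T (4.46 ± 0.10, limma adjusted p = 4.16e-06, 22.0-fold). Its levels thus followed the same order of lines as PLIN2, and ACSL1 did not. Of 10 other peroxisomal genes, 0 were called higher in MDA-MB231 and 3 in Hs578T, with the carnitine octanoyltransferase gene CROT 1.28 higher there. Of 16 other mitochondrial acyl-CoA genes, 7 and 3 were called, ACOT2, a thioesterase, at 1.11 higher in MDA-MB231. In the ketone body list, BDH1 was 1.62 higher in MDA-MB231 and OXCT1, the entry enzyme of ketone use, 1.14 higher in Hs578T, of 4 tested.

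Of 18 other PPAR target genes, 7 were called higher in MDA-MB231 and 2 in Hs578T. Over all genes these shares were 21.8% and 19%, also for the line counts below. UCP2, a mitochondrial carrier, was at 9.84 and 9.69 against 6.33 and 6.57 (3.31 ± 0.13, limma adjusted p = 1.63e-05). The UCP2 values in Hs578T lay near the filter level, so the size of its difference is uncertain. With FBP1, 1 of the 18 was at least 1.5-fold lower in MDA-MB231 (TXNIP, −0.59), and 2 were lower in Hs578T, TXNIP (−2.37) and ANGPTL4 (−0.82). Over all genes, 0.326% and 1.69% were lower by that much. ANGPTL4, an inhibitor of LPL, was at 8.92 in the Hs578T control and 8.10 with FBP1, and at 9.07 and 8.88 in MDA-MB231, so it shared its lowest array with PDK4. LPL was the 1 gene of this list at least 1.5-fold higher in Hs578T, against 1.39% of all genes. Of 16 PPAR partner and corepressor genes, 4 were called higher in MDA-MB231 and 2 in Hs578T. The coactivator gene NCOA2 was at 9.76 in the Hs578T control and 8.56 with FBP1 (−1.19), with a change of −0.11 in MDA-MB231. Of 3 other fatty acid binding protein genes, 2 were called higher in MDA-MB231, and CRABP2, which binds retinoic acid, was lower with FBP1 by 0.61 there and higher by 0.29 in Hs578T. No gene of the 8 lists was called for FBP1 over both lines by limma. In these lists 6 entries had an unadjusted p under 0.05 (5.5% of the 109 entries tested), with LPL counted in 2 lists. With each gene counted once, 5 of 105 did (4.76%), against 5.14% of all genes.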

How the data were processed

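Total RNA of 4 samples, a control and an FBP1 sample of each line, was hybridised to 1 Affymetrix array each, with groups taken from the labels' titles. The table deposited by the authors holds log2 expression values of 33297 probe sets, made with Affymetrix Expression Console 1.1.2800.28061 per the submitters' processing notes. Background correction, normalization and summarization are not given in the sources used here, and the log2 scale was read from the values (2.40 to 14.81). The platform annotation gave 19460 probe sets 1 gene. The probe set with the highest mean stood for a gene, and genes whose mean lay under a floor of 6.16 (percentile 25 of probe sets) were not tested. All genes were fitted in limma 3.58.1 (R 4.3.3) with terms for line and construct and an intensity trend, checked on simulated data, with Benjamini-Hochberg adjusted p-values called at 0.05. The prior had 5.04 degrees of freedom beside 1 residual degree. Within a line, differences were counted by size (1.5-fold). Every listed gene could be named, and of the other lists those past 1.5-fold in a line or with the 3 largest line differences. Of the macrophage markers PTPRC, CD163, MRC1, AIF1, CD68 and TYROBP, and VIM, CD44 and KRT5, were named as markers after their values were seen. The 43 genes and the lists were chosen with earlier results of these data known. Alternatives covered the filter, normalization, probe set averaging, the prior, the block and the fold. Promoter windows came from RefSeq (GRCh38.p14).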

Additional observations from a re-analysis of the deposited data

Results flagged for a closer look

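Of the 38 tested genes, 3 (7.89%) had changes with FBP1 of opposite sign in the lines and at least 0.5 apart on the log2 scale, against 5.86% of all genes tested. Of 105 genes of the other lists 9 did (8.57%), of which the 2 that were also at least 1.5-fold from control in a line are given here. The difference between the lines' changes could not be tested with 1 array per group. PPARG lay 0.12 below control in MDA-MB231 but 0.41 above it in Hs578T, a difference of −0.53 (MDA-MB231 minus Hs578T). PPARA had changes of 0.23 and −0.28, a difference of 0.51, so its signs were the reverse of those of PPARG. EHHADH had changes of 0.09 and −0.43, a difference of 0.52. Among the other lipid genes, LPIN1 had changes of −0.74 and 0.17 (a difference of −0.91) and CRABP2 of −0.61 and 0.29 (−0.89).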

How the results depend on the processing

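The counts of genes called for the line effect kept within 1.5 times under every alternative run, from 11 to 15 higher in MDA-MB231 and from 8 to 10 higher in Hs578T. The count called for FBP1 was 0 under each, also with no replicate block (0 of 38). That setting left out the cell line term when FBP1 was tested, and the construct term when the line difference was tested. The line differences of ECI2 (quantile normalization, median centring, no intensity trend, no replicate block), FABP3 (median centring), ACADM (no trend), PDK4 and MGLL (no replicate block) missed the threshold under the settings named, with 20 to 23 of the 23 calls kept. Without the intensity filter 41 genes were tested and 25 called. With a 2-fold threshold the count higher in MDA-MB231 and the count lower in Hs578T were each 0. The former was also 0 without genes dim in MDA-MB231 and abundant in Hs578T, which follows from leaving out FAR2, its only gene. No change within a line moved by 0.1 or more under the 5 scaling, filter and averaging settings. The MDA-MB231 median change was −0.0176 without the filter, of opposite sign to 0.007. Leaving out a replicate was not possible within a group, and the control and FBP1 arrays alone gave no called line difference of opposite sign. That outcome was fixed in advance, because the error of the fit rests on the disagreement between these array pairs. With control arrays alone, 18 of 38 line differences moved by at least their limma standard error. The count with FBP1 arrays alone is the same 18 by construction, because the line difference is the mean of the control and FBP1 differences. Neither is thus a separate check. The scaling method of the deposited values, dim probe sets and 1 array per group limit the precision.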

Other observations

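The genes next to PLIN2, FAR2 and PDK4 on their chromosomes were read for comparison, after their values were seen. The neighbours of PLIN2 did not share its line pattern: HAUS6 stood at 10.28 and 10.25 in MDA-MB231 and 10.75 and 10.61 in Hs578T, and DENND4C at 9.55 and 9.56 against 10.20 and 10.13. Next to FAR2, CCDC91 stood at 10.64 and 10.42 against 10.69 and 10.81, and ERGIC2 at 11.56 and 11.53 against 11.84 and 11.76. TMTC1, the third measured gene on that side, was higher in Hs578T as FAR2 was, at 6.89 and 7.21 against 9.47 and 9.12. Beyond CCDC91 on the other side, KLHL42 was also higher in Hs578T, at 9.37 and 9.31 against 10.21 and 10.25. MRPS35, the gene after it, was not, at 10.43 and 10.44 against 10.29 and 10.39. Of the 3 nearest measured genes on each side of PDK4, PON3 stood at 8.89 and 9.11 against 5.48 and 5.87, and PON2 at 9.27 and 9.31 against 12.85 and 12.67, so neighbours there lay in opposite orders between the lines. DYNC1I1, the next gene on the other side, stood at 8.07 in the Hs578T control and 7.62 with FBP1.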
